A study of Mus musculus with 6 samples.

Results

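The antiviral effector genes typical of type I interferon were followed in the heart. They are 10 genes, *Ifit1*, *Ifit2*, *Ifit3*, *Isg15*, *Oasl2*, *Oas1a*, *Rsad2*, *Usp18*, *Irf7* and *Bst2*, matched by symbol among the 24346 genes listed for each library. All 10 were found, and all 10 were among the 12923 genes that passed a filter on the mean FPKM (0.5 or more across the 6 libraries). The genes were selected on their levels and differences in these same libraries, with earlier results known, so that their levels and differences are given as a description, with no *P* value for a single gene and with counts of calls from which nothing is read. FPKM, a level scaled to exon length and to the mapped fragments of a library, is what the authors deposited for each gene.

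Heart RNA of C57BL/6J male mice was sequenced in 3 groups of 2 libraries. Normal chow was given to the C group. The NASH diet, made of casein, sucrose, cocoa butter, cholesterol and cholate to cause steatohepatitis, was given to the N group. The NP group received it together with pemafibrate at 0.1 mg/kg, which is a selective modulator of PPARα. The labels give 3 weeks of feeding for all groups, whereas the methods of the study give a longer period, and neither gives the age of the mice at the start. No allele and no other agent was named. Heart is the labelled tissue, but the labelled protocol for RNA extraction mentions liver, and the labels do not say whether the libraries of a group came from separate mice, so that the spread between them may be technical.

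The 6 libraries had cardiomyocyte markers at summed levels of 42327 to 52715 FPKM. The depth, estimated from the steps between low FPKM values, was about 26000000 and 21400000 reads in the C libraries and 8210000 to 8720000 reads in the N and NP libraries. Against the C libraries, depth and diet therefore cannot be told apart, while N and NP were alike in depth. The second C library stood apart with hepatocyte transcripts at a summed level of 404 FPKM, against 28.0 in the other C library and 1.15 to 5.26 in the N and NP libraries. Atrial markers stood at 172 and 307 FPKM in the C libraries and at 3665 to 6191 FPKM in the N and NP libraries. Of these markers, 5 of 5 were called higher in N than in C, against 1.48% of all genes tested. Adipocyte markers ranged from 1.89 to 8.24 FPKM in the C group, from 98.9 to 178 FPKM in the N group and from 14.4 to 82.6 FPKM in the NP group. The part of these differences in the results was not tested.

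Type I interferons are secreted when a cell detects foreign or misplaced nucleic acid. They bind the receptor IFNAR1/IFNAR2, whose kinases JAK1 and TYK2 activate STAT2. STAT2 and IRF9 take part in a complex that binds the interferon-stimulated response element (ISRE) in the promoters of its target genes. The proteins of these genes bind viral RNA, block translation, tag other proteins with ISG15, hold virions at the cell surface or limit the signal itself. Interferon-gamma acts through another receptor and the gamma-activated site (GAS), and many genes respond to both kinds of interferon.

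The promoters are shown first, for the ISRE letters that 6 of the genes hold. RefSeq promoters of the build GRCm38.p6 (mm10), from 250 bases before to 50 bases after an annotated start site, were found for 9 of the 10 genes, all but *Usp18*. On both strands, the ISRE core GAAANNGAAA was found in 6 of these 9 genes, 66.7%, whereas 1131 of all 32851 promoters in the table, 3.44%, held it. Here and below, counts of genes take a match in any promoter of the gene, and shares of all promoters take single promoters. Below, each window is printed on the strand of its gene, with 20 bases beside the matches where the start site allows, and capitals mark the matches, which overlap where they run on. A run of TTTC in place of GAAA is a match on the opposite strand.
Ifit1 (chr19:34640765-34640833, plus strand): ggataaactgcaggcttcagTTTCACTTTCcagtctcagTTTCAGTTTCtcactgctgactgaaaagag
Ifit3 (chr19:34583353-34583436, plus strand): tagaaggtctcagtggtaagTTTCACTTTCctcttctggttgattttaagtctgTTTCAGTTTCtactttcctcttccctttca
Isg15 (chr4:156200855-156200916, minus strand): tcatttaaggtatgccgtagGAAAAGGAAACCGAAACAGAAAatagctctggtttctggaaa
Oas1a (chr5:120907526-120907565, minus strand): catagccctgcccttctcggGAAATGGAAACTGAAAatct
Rsad2 (chr12:26456543-26456592, minus strand): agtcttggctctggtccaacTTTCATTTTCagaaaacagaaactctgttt
Bst2 (chr8:71537567-71537622, minus strand): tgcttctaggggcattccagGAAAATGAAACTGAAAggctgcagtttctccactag

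*Ifit1* and *Ifit3* held the same pair of 10-base matches, TTTCACTTTC and TTTCAGTTTC. They lay at -104 to -95 and -85 to -76 from the start site in *Ifit1*, and at -156 to -147 and -122 to -113 in *Ifit3*. In *Isg15*, 3 overlapping matches ran from -78 to -57. The 2 overlapping matches ran from -20 to -5 in *Oas1a* and from -130 to -115 in *Bst2*, and the single match in *Rsad2* lay at -120 to -111. The annotated start sites of *Oas1a* and *Ifit3* were not at the outer end of the RefSeq gene.

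The longer form GAAANNGAAACT was held by 4 of the 9 genes, *Ifit1*, *Ifit3*, *Oas1a* and *Bst2*, and by 0.271% of all promoters. The GAS letters TTCNNNGAA were held by 3 of the 9, *Ifit2*, *Oas1a* and *Bst2*, and by 8.30% of all promoters. In *Bst2* the GAS match at -136 to -128 overlapped the first ISRE match. The windows of *Ifit2*, *Oasl2* and *Irf7* did not hold the ISRE letters. Among 16 interferon-gamma-type genes with a promoter in the table, 10 held the ISRE core and 7 held the GAS letters. In the other lists followed below, the ISRE core was held by 16 of 39 other interferon-stimulated genes and 0 of 4 ISG15 conjugation genes. It was held by 3 of 13 sensor genes and 2 of 14 receptor and signalling genes. A match describes the letters and does not show that a factor binds there.

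**Figure D1:**
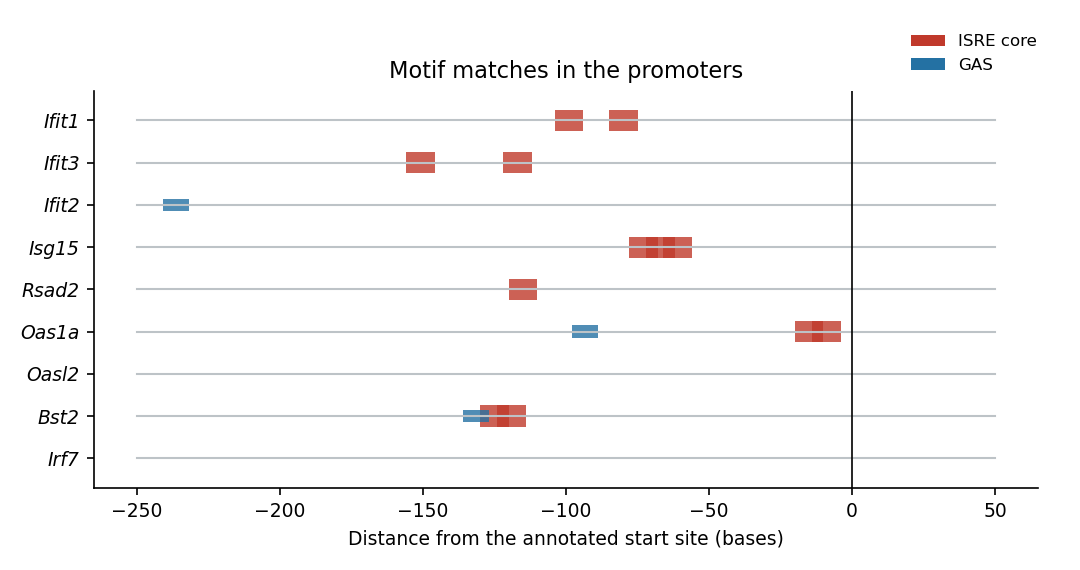
Positions of matches to the ISRE core (red) and the GAS letters (blue) in the promoters of the 9 genes with a RefSeq entry, with the distance from the annotated start site in bases on the horizontal axis. The ISRE matches of 6 genes lie between -156 and -5, before the start site.

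In the N group, all 10 antiviral effector genes were higher than in the C group. The ratio of the group means ranged from 2.33 in *Rsad2* to 7.15 in *Ifit1*, with a median of 3.41. In the NP group, all 10 genes were lower than in the N group, and the N mean was 2.15 (*Oas1a*) to 7.13 (*Ifit3*) times the NP mean. For each of the 10 genes, the lower N library was above every C and NP library. The genes were chosen with this pattern known, so that nothing is read from these counts, and over all genes tested the N libraries did not overlap and were higher than the C libraries for 22.5% and the NP libraries were likewise lower than the N libraries for 14.7%.

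The *Ifit* genes lie in a cluster on chromosome 19 and encode proteins that bind viral RNA and block its translation. *Ifit1* (chr19:34640889-34650009) measured 2.69 and 2.49 FPKM with chow, 13.03 and 24.0 FPKM with the NASH diet and 2.98 and 2.60 FPKM with pemafibrate added. Both N libraries stood far above the other 4, and the second N library was 1.85 times the first. On log2(FPKM + 1), the scale of all differences below, which understates the change of low genes, *Ifit1* was 2.38 ± 0.27 (SE of the linear model) higher in N than in C.

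*Ifit3* (chr19:34583119-34588982) measured 4.57 and 3.39 FPKM with chow, 22.2 and 29.6 FPKM with the NASH diet and 4.39 and 2.88 FPKM with pemafibrate added. Its difference of 2.43 for N against C was the largest among the 10 genes, as was its difference of -2.54 for NP against N. *Ifit2* (chr19:34550550-34576534) measured 5.27 and 3.71 FPKM with chow, 12.1 and 18.8 FPKM with the NASH diet and 4.93 and 6.36 FPKM with pemafibrate added. Its smaller difference, 1.57 ± 0.25, still left the groups apart. *Ifit3b*, a near-copy of *Ifit3*, rose from 1.51 ± 0.152 (SD, n = 2) FPKM in the C group to 11.9 ± 2.85 in the N group (adjusted *P* = 0.00383, limma), and reads of these copies may have been split between them. The related *Ifit1bl1* and *Ifit1bl2* differed by 0.21 and -0.28 for N against C and did not pass (adjusted *P* = 0.547 and 0.355, limma). These and the other members of the *Ifit*, *Oas* and *Mx* families named below, other than *Ifit3b*, were picked after their values were seen.

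ISG15 is a ubiquitin-like protein that is attached to other proteins, and USP18 removes it and also dampens the type I interferon receptor. *Isg15* (chr4:156199424-156200818) measured 9.05 and 6.26 FPKM with chow, 16.5 and 29.4 FPKM with the NASH diet and 6.90 and 7.70 FPKM with pemafibrate added. The first N library was 1.82 times the higher C library, and the second was 1.78 times the first, which gave *Isg15* the largest standard error of the 10 genes, 0.29. *Usp18* (chr6:121245906-121270917) measured 2.52 and 2.0 FPKM with chow, 7.46 and 7.61 FPKM with the NASH diet and 2.32 and 2.10 FPKM with pemafibrate added. Its N libraries were nearly equal, and its differences of 1.39 and -1.41 had the smallest standard error, 0.13. An exon of *Usp18* overlaps *Gm44148* on the opposite strand, and the strand setting of the authors' counting is not given in the sources used here.

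The enzymes that attach ISG15 were followed as 4 genes. *Uba7*, its activating enzyme, rose from 6.56 ± 0.234 (SD, n = 2) to 25.8 ± 1.07 FPKM (adjusted *P* = 0.00248, limma) and fell to 6.59 ± 0.772 FPKM in the NP group (adjusted *P* = 0.00234). *Ube2l6*, its conjugating enzyme, rose by 1.81 (adjusted *P* = 0.00648, limma) and fell by 1.65 (adjusted *P* = 0.00936). Its fall did not pass with only the 2 groups compared in the fit (adjusted *P* = 0.0587, limma). The ligases differed less, and neither passed. *Herc6* was at 1.41 ± 0.0552, 3.79 ± 0.794 and 1.44 ± 0.212 FPKM in the C, N and NP groups (adjusted *P* = 0.0580 for N against C, limma), and *Trim25* was at 10.5 ± 0.430, 12.8 ± 1.1 and 10.1 ± 1.75 FPKM (adjusted *P* = 0.464). Without the second C library, 0 of the 4 genes passed for N against C in limma's test, and the adjusted *P* value of *Uba7* was 0.0519. With all libraries, 3 of the 4 had an unadjusted *P* value under 0.05 in this comparison. Here and below, the share of all genes under this unadjusted threshold was not counted, so that nothing is read from such counts.

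The OAS proteins sense double-stranded RNA and make the second messenger that activates RNase L, and OASL2 belongs to the OAS-like branch of the family. *Oasl2* (chr5:114896926-114912245) measured 3.63 and 2.85 FPKM with chow, 10.2 and 11.9 FPKM with the NASH diet and 4.99 and 4.44 FPKM with pemafibrate added. The NP libraries lay below the N libraries but above both C libraries, which held for none of the other 9 members. *Oas1a* (chr5:120896256-120907544) measured 1.31 and 1.26 FPKM with chow, 2.70 and 3.40 FPKM with the NASH diet and 1.58 and 1.26 FPKM with pemafibrate added. It was the lowest of the 10 genes in every group and had the smallest differences, 0.82 ± 0.15 and -0.74 ± 0.15. About 39 and 50 reads in the N libraries and 22 and 18 reads in the NP libraries lay behind it, and reads may be shared with the other *Oas1* genes, which are close copies.

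The rest of the family was lower or did not pass. *Oas2* was at 3.69 ± 0.625 FPKM in the C group and 4.23 ± 0.652 FPKM in the N group (n = 2 each, adjusted *P* = 0.851, limma). *Oas1b* and *Oasl1* differed by 0.35 and 0.44 for N against C (adjusted *P* = 0.452 and 0.290, limma). *Oas3*, *Oas1c* and *Oas1g* were under the filter. *Oas3* was at 0.0837 and 0.112 FPKM with chow, 0.576 and 0.634 FPKM with the NASH diet and 0.107 and 0.104 FPKM with pemafibrate added.

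*Rsad2* encodes viperin, which makes a chain-terminating nucleotide. *Rsad2* (chr12:26442743-26456452) measured 10.2 and 8.11 FPKM with chow, 22.3 and 20.4 FPKM with the NASH diet and 9.31 and 7.66 FPKM with pemafibrate added. It was the only member whose first N library was the higher, with a ratio of the second to the first of 0.915, and its ratio between the N and C means was the smallest of the 10. *Bst2* encodes tetherin, which holds budding virions at the cell surface, and *Bst2* (chr8:71534255-71537472) was the most abundant member in every library. Its levels were 40.1 and 36.1 FPKM with chow, 111 and 148 FPKM with the NASH diet and 34.3 and 32.1 FPKM with pemafibrate added. Both NP libraries were below both C libraries, which was true of no other member. Of the *Mx* genes, which encode dynamin-like GTPases against viral nucleocapsids, *Mx1*, under the filter, was at 0.176 and 0.221 FPKM with chow, 0.674 and 0.689 FPKM with the NASH diet and 0.146 and 0.136 FPKM with pemafibrate added, and *Mx2* was at 1.01 ± 0.0713 and 1.31 ± 0.0465 FPKM in the C and N groups (adjusted *P* = 0.586, limma).

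*Irf7* encodes the transcription factor that drives the late wave of interferon-alpha genes. *Irf7* (chr7:141263183-141266499) measured 10.3 and 6.63 FPKM with chow, 45.0 and 48.3 FPKM with the NASH diet and 8.98 and 7.83 FPKM with pemafibrate added. A single N library was 4.36 to 7.28 times a single C library, and the NP libraries lay between the 2 C libraries. Its differences were 2.36 ± 0.20 and -2.34 ± 0.20. An exon of *Irf7* overlaps *Phrf1* on the opposite strand.

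**Figure D2:**
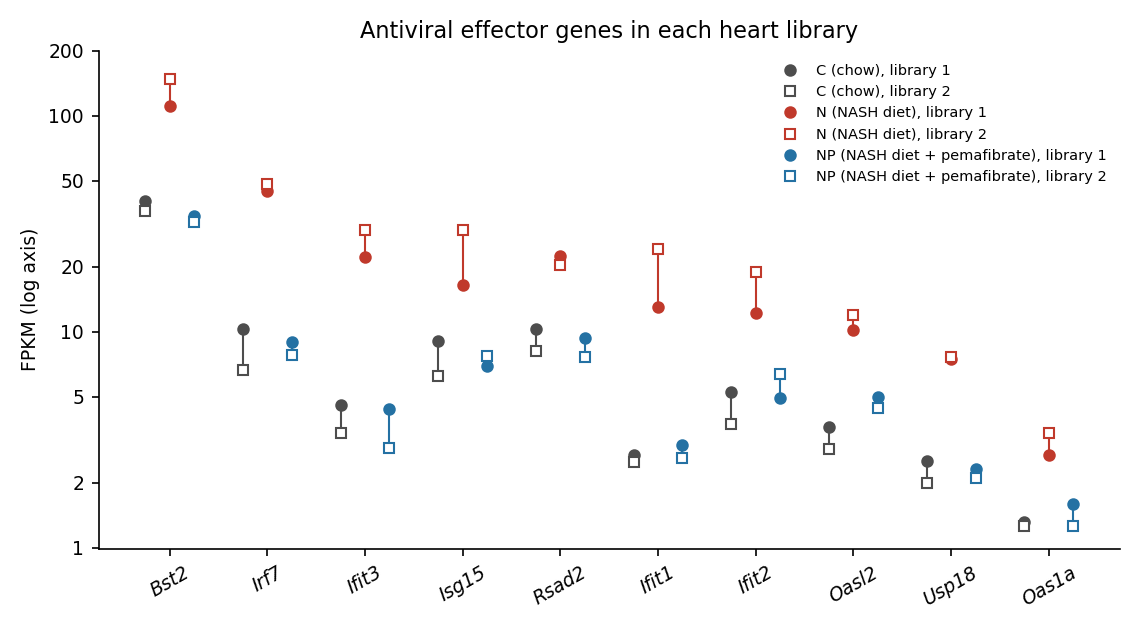
FPKM of the 10 antiviral effector genes on a log axis, ordered by their mean in the N group, with a filled circle for library 1 and an open square for library 2 of the C (grey), N (red) and NP (blue) groups and a line joining them. Both N libraries lie above the other 4 libraries for every gene, from 2.70 FPKM upward for *Oas1a* and up to 148 FPKM for *Bst2*.

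The order of the levels was not the same in every group. In the C group *Bst2* was followed by *Rsad2*, *Irf7* and *Isg15*, at means of 9.17, 8.47 and 7.65 FPKM, whose ranges overlapped from each gene to the next. In the N group *Irf7* was second at 46.6 FPKM, apart from its neighbours, and *Ifit3*, *Isg15*, *Rsad2*, *Ifit1* and *Ifit2* followed at 25.9 to 15.5 FPKM with ranges that overlapped from each to the next. *Ifit1* was eighth in the C group and sixth in the N group. In the NP group *Rsad2*, *Irf7*, *Isg15* and *Ifit2* again took the places after *Bst2*, and *Usp18* and *Oas1a* were the lowest in every group.

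The levels of the NP group lay near those of the C group. The ratio of the NP mean to the C mean ranged from 0.872 in *Bst2* to 1.46 in *Oasl2*, with a median of 0.985. The median difference for NP against C was -0.0015 on the log2 scale, against -0.01 over all genes tested. In limma's test 0 of the 10 genes passed, 1 had an unadjusted *P* value under 0.05, and 0.0387% of all genes tested passed. Both NP libraries lay above both C libraries for 1 gene and below for 1 gene, where 19.5% and 23.0% of all genes did so. The standard errors of 0.13 to 0.29 leave room for small differences, so that equality with the C group was not shown.

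The N and NP comparisons share the N libraries, and their values are therefore set side by side. The median difference of the 10 genes was 1.54 for N against C and -1.44 for NP against N, where the medians over all genes tested were -0.03 and 0.03. In limma's test over all genes, 7 of the 10 were called higher in N than in C, as were 1.48% of all genes tested, and 7 were called lower in NP than in N, as were 1.39%. The uncalled genes were *Ifit2*, *Isg15* and *Oas1a* in both. These counts follow from how the genes were chosen. They also rested on single libraries, since 1 gene was called higher without the second C library, 2 without the second N library and 5 without any 1 of the other 4. Called lower were 0 genes without the second NP library, 1 without the first, 2 without the second N library and 4 without any 1 of the other 3.

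**Figure D3:**
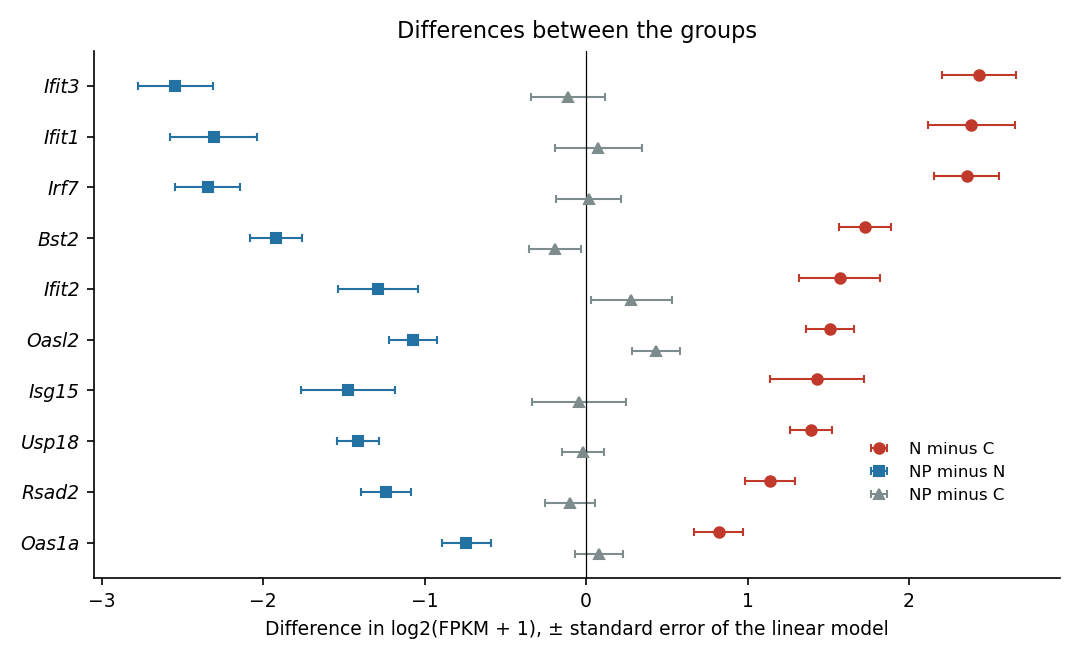
Differences in log2(FPKM + 1) of the 10 antiviral effector genes for N against C (red circles), the NP and N groups (blue squares) and the NP and C groups (grey triangles), with the standard error of the linear model as bars. All 10 red points lie at 0.82 or more, all 10 blue points at -0.74 or less, and the grey points lie between -0.19 and 0.44.

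In the N group the second library was the higher for 9 of the 10 genes, where the median ratio over all genes was 0.990. It was more than 1.5 times the first for 3 of them, *Ifit1*, *Isg15* and *Ifit2*, against 7.88% of all genes. In the C group the first library was the higher for all 10, by 1.04 times in *Oas1a* to 1.55 times in *Irf7*. The median ratio over all genes was 0.994, and 1 of the 10 was over 1.5, against 2.05% of all genes. Each group gives 1 pair of libraries, so that nothing is read from these counts. The libraries of the N group, and those of the NP group, had been supplied under names of different kinds, which the labels do not explain, and the part of this in the results was not tested. Pearson's r of each gene with the mean profile of the 10 over the 6 libraries was 0.966 to 0.995. Each of the 10 is itself part of that mean, which the other genes are not. By the same measure the most similar of the other genes were *Stat2* (0.998), *H2-M3*, an MHC class I-like gene (0.997), *Ifit3b* (0.997), *Parp14* (0.997) and *Psmb10*, an immunoproteasome subunit (0.996). Since 6 libraries in 3 groups share 1 pattern, these values describe the likeness only.

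At the start of the pathway, the ligands were nearly undetected. Of 21 interferon genes (*Ifnb1*, *Ifng*, and interferon-alpha and related genes), 19 were listed at 0 in every library. *Ifnb1* was listed at 0, where 3 reads would amount to about 0.209 and 0.254 FPKM in the C libraries and to 0.624 to 0.663 FPKM in the N and NP libraries, and this limit covers counting error only. *Ifng* was at 0.114 FPKM in the second N library and listed at 0 in the other 5. *Ifnz* was at 0.0904 FPKM in the first N library and at 0.0934 FPKM in the second NP library. For *Ifnz*, 3 reads would amount to about 0.274 and 0.281 FPKM in these libraries. In each library 35 to 65 genes were listed at 0 although another library held them above 5 FPKM, so that a listed 0 need not be a level under this limit. Interferon transcripts at a low level could therefore not be measured reliably here.

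Of the receptors and their kinases, *Ifnar1* was at 5.02 ± 0.0626, 5.16 ± 0.696 and 5.42 ± 1.17 FPKM in the C, N and NP groups (SD, n = 2). *Ifnar2* was at 24.8 ± 2.49, 33.4 ± 1.93 and 29.1 ± 3.83 FPKM (adjusted *P* = 0.251 for N against C, limma). *Jak1* and *Tyk2* differed by 0.08 and -0.01 for N against C (adjusted *P* = 0.864 and 0.991, limma). The receptor and kinase transcripts thus did not pass, in contrast with *Irf9* and *Stat2*.

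*Irf9* rose from 8.22 ± 0.861 to 28.8 ± 1.15 FPKM (adjusted *P* = 0.00308, limma, and 0.0519 without the second C library) and fell to 8.22 ± 0.532 FPKM (adjusted *P* = 0.00297). *Stat2* was at 5.39 ± 0.852, 16.2 ± 2.96 and 5.63 ± 0.679 FPKM, with differences of 1.42 and -1.36 (adjusted *P* = 0.0220 and 0.0273, limma). The call of *Stat2* in the N group against the C group was kept only without the first N library (adjusted *P* = 0.0473) and lost without any of the other 5, up to 0.203. Both were called higher, 2 of the 15 receptor and signalling genes followed, against 1.48% of all genes tested. Of the 15, 0 were called higher without the second C library, 2 without the first N library and 1 without any 1 of the other 4, and with all libraries 6 had an unadjusted *P* value under 0.05. For NP against N, *Irf9* and *Stat2* were called lower, as were 1.39% of all genes tested. Called lower too were the feedback regulator *Socs3*, which was picked after its values were seen, and *Ptpn6* (adjusted *P* = 0.0473 and 0.0372, limma). With any 1 library left out, 1 of the 15 genes was called lower. *Socs1*, another feedback inhibitor, was at 0.454 ± 0.324, 2.37 ± 1.92 and 0.703 ± 0.316 FPKM (adjusted *P* = 0.302 for N against C).

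Among 17 tested sensors of nucleic acid and their adaptors, 3 were called higher in the N group and 3 were called lower in the NP group. Over all genes tested, 1.48% and 1.39% were so called. *Zbp1*, a sensor of Z-form nucleic acid, rose from 0.881 ± 0.0828 to 12.5 ± 3.003 FPKM (adjusted *P* = 0.00348, limma, and 0.0519 without the second C library) and fell to 0.550 ± 0.297 FPKM. *Ifih1*, which encodes the RNA sensor MDA5, was at 2.47 ± 0.192, 6.90 ± 0.621 and 2.49 ± 0.408 FPKM (adjusted *P* = 0.0189 and 0.0208, limma). *Irf5*, a factor downstream of Toll-like receptors, differed by 1.08 and -1.11 (adjusted *P* = 0.0293 and 0.0291, limma). With only the 2 groups compared in the fit, *Irf5* passed in neither comparison (adjusted *P* = 0.0627 and 0.115, limma). In that fit *Ifih1* did not pass for NP against N (adjusted *P* = 0.0992, limma). *Tlr9* differed by 0.92 and did not pass (adjusted *P* = 0.0982). With 1 library left out, the count called higher was 0 without the second C library, 1 without the first C library or either N library and 2 without either NP library, and the count called lower was 1 in each case. With all libraries, 10 of the 17 had an unadjusted *P* value under 0.05 for N against C in limma's test, with the share of all genes not counted.

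The other interferon-stimulated genes had smaller median differences. Of 50 such genes, 41 passed the filter and 5 were listed at 0 in every library. Of the 41, 8 were called higher in the N group and 7 lower in the NP group, against 1.48% and 1.39% of all genes. The median differences were 0.67 and -0.66, against 1.54 and -1.44 for the 10 antiviral effector genes, which were chosen with their values known. The largest differences for N against C were those of *Ifit3b* (2.35), *Lgals3bp* (2.02, adjusted *P* = 0.0121), a secreted glycoprotein gene, *Xaf1* (1.77, adjusted *P* = 0.0297), which promotes apoptosis, and *Trim21* (1.56, adjusted *P* = 0.0108), a cytosolic antibody receptor gene. Without the second C library, 0 of the 41 were called higher, and with all libraries 31 had an unadjusted *P* value under 0.05. The counts called higher were 2 without the second N library, 4 without the first C library and 5 without the first N library. Between 1 and 5 were called lower with 1 library left out, the lowest count without the second NP library.

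The interferon-gamma-type genes had larger median differences than the antiviral effector genes. All 26 genes of this list passed the filter. In the N group 22 were called higher and in the NP group 23 were called lower, against 1.48% and 1.39% of all genes tested. The median differences were 2.46 and -2.73. The genes of this list, like those of the other lists, were chosen with earlier results known. Their difference from the 10 antiviral effector genes was not tested. *Igtp*, *Irgm2*, *Irgm1* and *Iigp1*, immunity-related GTPases of resistance to intracellular pathogens, had the largest differences, 5.68, 4.21, 4.13 and 3.69. *Igtp* rose from 8.61 ± 1.22 to 499 ± 144 FPKM (SD, n = 2, adjusted *P* = 0.000959, limma) and was at 7.72 ± 1.78 FPKM in the NP group. *Irf1*, the transcription factor on this list, picked after its values were seen, rose from 13.8 ± 0.136 to 42.8 ± 10.3 FPKM (adjusted *P* = 0.0219, limma), a call that was lost without either C library or the second N library, at up to 0.197. With 1 library left out, 15 to 22 of the 26 genes were called higher, 15 without the second C library, and 19 to 22 were called lower.

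**Figure D4:**
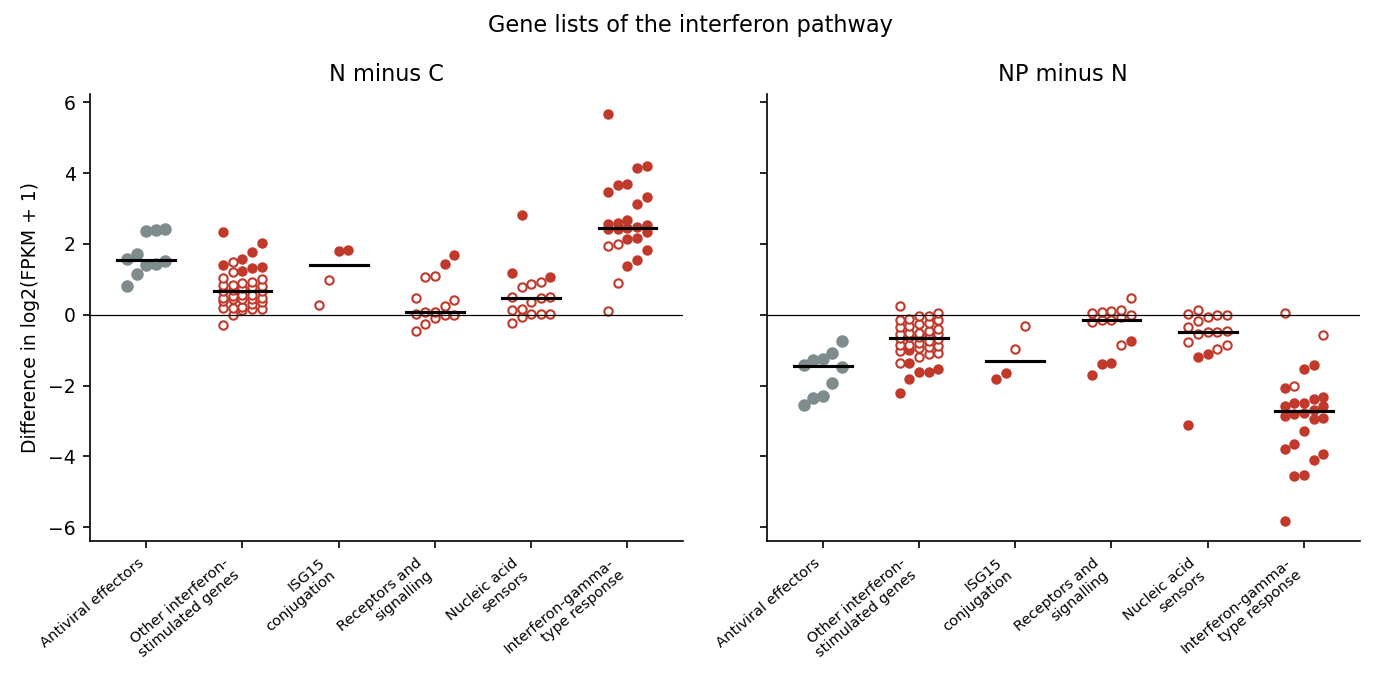
Differences in log2(FPKM + 1) of single genes in each list, for N against C on the left and the NP and N groups on the right, with a bar at the median. Filled red points passed the threshold of 0.05 and open points did not. The 10 antiviral effector genes are grey because their calls follow from how they were chosen. The other lists were also written with earlier results known. The median for N against C is 1.54 for the antiviral effector genes, 0.08 for receptors and signalling and 2.46 for the interferon-gamma-type list.

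Markers of immune cells, like the antiviral effector genes, had their highest sums in the N group. The summed level of 11 T and NK cell markers was 1.28 and 1.23 FPKM with chow, 10.9 and 13.4 FPKM with the NASH diet and 1.34 and 0.737 FPKM with pemafibrate added. Of 3 tested markers in this list, 2 were called higher in the N group and 2 were called lower in the NP group. Over all genes tested, 1.48% and 1.39% were so called. The macrophage list summed to 348 and 315, 632 and 539, and 261 and 229 FPKM. Of its 9 markers, 4 were called higher in the N group and 6 lower in the NP group, against the same shares of all genes. Calls of these marker lists were not counted with libraries left out. The 5 B cell markers summed to 1.04 and 0.783 FPKM in the C group, 5.46 and 5.13 in the N group and 1.28 in both NP libraries, and the 5 inflammatory monocyte markers to 2.08 and 1.94, 11.7 and 15.8, and 1.27 and 2.10. The sums of these immune markers were thus higher in both N libraries. The neutrophil markers summed to 7.48 and 3.18, 12.3 and 9.58, and 1.96 and 2.81 FPKM. Within the N group, the macrophage, B cell and neutrophil sums were higher in the first library. The T and NK cell and inflammatory monocyte sums, like that of the antiviral effector genes, were higher in the second. For NP against C, 6 of 9 macrophage markers were below both C libraries, against 23.0% of all genes, with a median difference of -0.26. In bulk tissue, fewer cells of a type and less RNA per cell cannot be told apart, and the part of immune cells in the levels of the antiviral effector genes was not tested.

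Of the plasmacytoid dendritic cell, known as a strong source of type I interferon, the defining marker *Siglech* was listed at 0 in both N libraries and was at 0.0839 to 0.166 FPKM in the other 4, with the same limit on a listed 0. *Irf8*, on the same list but also used by other myeloid cells and induced by interferon, rose from 2.35 ± 0.0462 to 6.77 ± 0.969 FPKM (adjusted *P* = 0.0141, limma), a call that was lost without either C library or the second N library, at up to 0.169. Both genes were picked after their values were seen, and *Siglech* was under the filter in all groups. Of the 7 markers on this list, 3 were tested, and they differed by -0.19 to 1.21 for N against C, with a median of 0.07. The largest was *Irf8*, and 1 of the 3 was called higher, against 1.48% of all genes tested. Whether these cells differed between the groups was not tested. The sum of this list, 2556 to 3300.3 FPKM, is mostly that of *Cox6a2*, which heart muscle expresses. Endothelial markers summed to 209 to 301 FPKM and fibroblast markers to 423 to 614 FPKM over the 6 libraries.

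**Figure D5:**
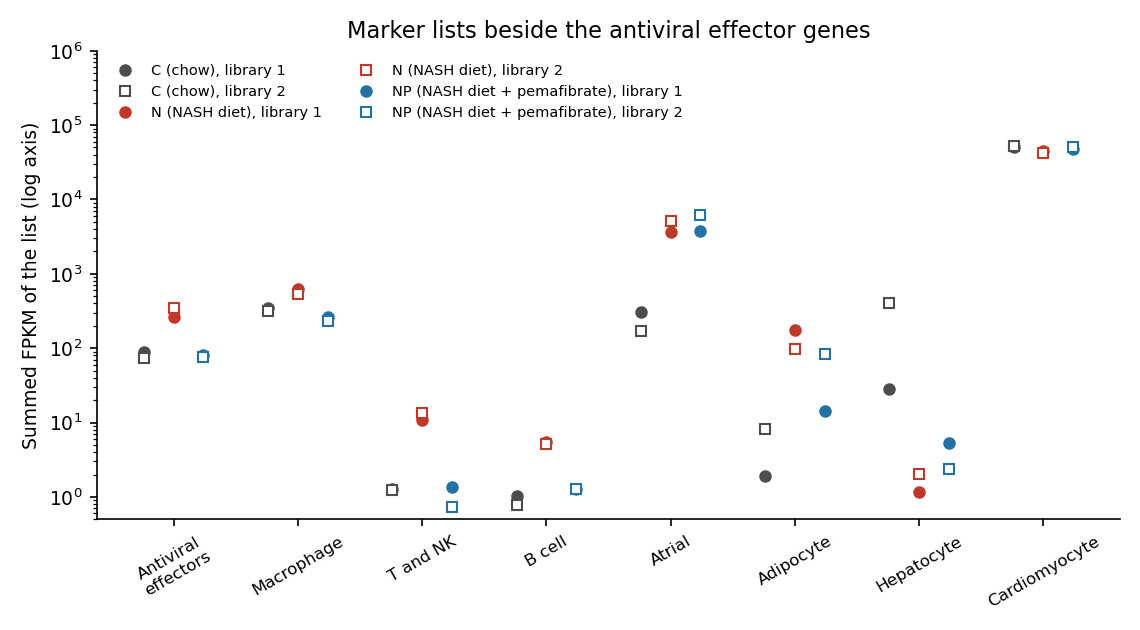
Summed FPKM on a log axis of the antiviral effector genes and of marker lists in each library, with a circle for library 1 and a square for library 2 of the C (grey), N (red) and NP (blue) groups. The antiviral effector genes sum to 72.8 and 89.6 FPKM with chow, 262 and 342 FPKM with the NASH diet and 74.95 and 80.7 FPKM with pemafibrate added. Macrophage, T and NK and B cell markers are also highest in the N libraries, whereas the atrial markers are high in both the N and NP libraries.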

How the data were processed

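The authors mapped 75-base single-end reads of a stranded library to mm10 and computed FPKM, which are the deposited values. The submitters' processing notes name TopHat2 2.0.13, Bowtie2 2.2.3, SAMtools 0.1.19 and Cufflinks 2.2.1. The annotation and strand setting are not given in the sources used here. FPKM are normalized for length and depth, and no counts were used here.

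FPKM were taken as log2(FPKM + 1), and genes with a mean under 0.5 FPKM were left out. The other 12923 were fitted in limma 3.58.1 (R 4.3.3) with 3 groups, 3 residual degrees of freedom and moderation that follows the mean. Benjamini-Hochberg adjustment ran over all genes tested, and 0.05 was the threshold. With 2 libraries against 2, the smallest *P* value of an exact permutation test is 0.333. The fit was tested on simulated data. Plots were drawn with matplotlib 3.10.9, and lists were handled with pandas 2.3.3 and numpy 2.4.6 (Python 3.11.15).

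The members, the lists written by hand, the tests and the alternatives were chosen with earlier results of these data known. Of all list entries, 2 markers were not found. The genes named are the members, *Ifnb1*, *Ifng* and any ligand above 0, *Ifnar1*, *Ifnar2*, *Jak1*, *Tyk2*, *Stat2* and *Irf9*, the ISG15 conjugation list, the 4 genes of each other pathway list with the largest difference between the N and C groups, and the 5 genes with the profile most like the members. Others are named as picked later. An item of the pathway lists is not reported here. Samples were grouped by their titles.

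The depth was estimated from 4107 genes with 1 transcript in GENCODE vM21, with 200 bases taken off the length. Between 75.0% and 79.5% of values up to 5 reads lay within 0.1 of a whole read. Positions are those of RefSeq on mm10. Motifs were searched as letters on both strands. Pseudocounts, filters, scalings, designs and left-out libraries were varied. Data other than the FPKM were not analysed here.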

Additional observations from a re-analysis of the deposited data

How the results depend on the processing

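Scaling to the same total moved the median of all genes for N against C from -0.03 to 0.12, and gave 309 called genes in place of 200, 15 other interferon-stimulated genes in place of 8 and 10 genes for NP against C in place of 5, with 2 receptor and signalling genes called lower in the NP group in place of 4. With only the 2 groups compared in the fit, the genes called for NP against N fell from 179 to 78, the antiviral effector genes from 7 to 4, the other interferon-stimulated genes from 7 to 2, the ISG15 conjugation genes from 2 to 1, the receptor and signalling genes from 4 to 1 and the sensors from 3 to 1. The receptor and signalling genes called for N against C went from 2 to 1 in this fit and without a filter. Without a filter, 4 antiviral effector genes, 1 receptor and signalling gene and 1 sensor were called lower for NP against N, and 0 genes passed for NP against C in limma's test. A pseudocount of 0.1 gave 12 genes for NP against C, and quantile normalization gave 2 receptor and signalling genes called lower in the NP group. With CT required after the ISRE core, 4 promoters matched in place of 6.

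With each library left out in turn, a lone library is assumed to vary like the other groups. Then 49 (without the second C library) to 183 genes were called for N against C, 67 to 108 for NP against N and 5 to 101 (without the first C library) for NP against C. The antiviral effector genes called were 1 to 5 higher in the N group and 0 to 4 lower in the NP group. In the same order, the counts were 0 to 6 and 1 to 5 for other interferon-stimulated genes, 0 to 2 and 1 to 2 for ISG15 conjugation, 0 to 2 and 1 for receptors and signalling, 0 to 2 and 1 for sensors, and 15 to 22 and 19 to 22 for interferon-gamma-type genes. The median differences of the antiviral effector genes were 1.37 to 1.85 for N against C, -1.73 to -1.35 for NP against N and -0.19 to 0.11 for NP against C.

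Genes near 0 changed sign. For N against C, *Ifnar1* was at -0.0058 with quantile normalization, and with 1 library left out it ranged from -0.086 to 0.14, *Jak1* from -0.060 to 0.22 and *Tyk2* from -0.14 to 0.12, while *Tyk2* was at 0.14 when scaled to the same total. For NP against N, with 1 library left out, *Ifnar1* ranged from -0.13 to 0.24, *Jak1* from -0.10 to 0.26, *Tyk2* from -0.18 to 0.079, *Oas2* from -0.55 to 0.27 and *Ifit1bl1* from -0.17 to 0.081. The causes were not tested.

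To see whether the replicate numbers pair the samples, replicate differences were compared over 12923 genes, which do not count as independent. They had Pearson correlations of 0.0471 (C and N), 0.124 (C and NP) and 0.458 (N and NP) and Spearman correlations of 0.230, 0.263 and 0.555, so the numbers were not taken as pairs over all 3 groups. Whether same-numbered N and NP libraries, which carry names of a like kind, share a collection was not tested. A replicate block led to 328 called genes for N against C, 200 for NP against N and 20 for NP against C, and to 13 other interferon-stimulated genes called higher in the N group. The count of antiviral effector genes was 8 higher in the N group and 7 lower in the NP group.

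Levels near 18 reads, as for *Oas1a* in the NP group, and the ligands are limited by depth.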
